A study of Homo sapiens with 6 samples.

Results

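Most of the genes described here fold secretory proteins in the endoplasmic reticulum (ER) or return misfolded ones to the cytosol for destruction, a route called ER-associated degradation (ERAD). Members were chosen by gene symbol from a list of 37 genes, and all 37 were among the 17918 genes of the deposited table and among the 12612 that passed the filter on low counts. Of these, 22 were grouped as folding genes (12 chaperones and co-chaperones, 8 oxidoreductases, and MZB1 and JCHAIN, a pair specific to the B lineage), and 15 serve degradation. JCHAIN is a chain of secreted antibody and not a folding factor, so sums and medians are also given without MZB1 and JCHAIN. They were measured by RNA sequencing in KMS11, an established human cell line from a multiple myeloma, the malignancy of plasma cells. The knockdown group (3 libraries) had CRIP1, a small LIM domain protein, lowered by a short hairpin RNA, and the control group (3 libraries) had a scrambled hairpin. No other treatment is stated for either group and both are of the same cell line. A single hairpin label against CRIP1 is given, without its sequence, so effects of that hairpin on other transcripts cannot be told apart from loss of CRIP1. The series describes the 3 replicates of each group as biological, but no label ties a library to a culture of its own, so the p-values measure the spread between these libraries, which may be partly technical.

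A plasma cell makes antibody chains in very large amounts, and its ER is built for that load. New chains meet the chaperone HSPA5 (BiP) and its partners, sugar-bearing proteins pass through the calnexin and calreticulin cycle, and oxidoreductases of the protein disulfide isomerase (PDI) family form and reshuffle disulfide bonds. Chains that do not fold have mannose trimmed from their sugars, are read by lectins, pass a channel around the ligase SYVN1 and its partner SEL1L, and are pulled out by the ATPase VCP for the proteasome. Many of these genes are transcribed under the unfolded protein response, whose sensors are ERN1 (IRE1), ATF6 and EIF2AK3 (PERK) and whose transcription factors include spliced XBP1, cleaved ATF6 and ATF4.

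Library totals ran from 16971454 to 18005318 estimated counts. CRIP1 itself was at 2791, 3327 and 3174 TPM (a level corrected for gene length and for library total) in scramble replicates 1 to 3 and at 127, 129 and 134 TPM in the knockdown replicates, a 26.2-fold reduction (-4.71 as a log2 fold change, SE 0.06; edgeR's adjusted p = 6.15e-22). Plasma cell markers were present in all 6 libraries apart from SLAMF7, which was near 0 in both groups. Of 9 tested, 6 were lower and 3 higher, and their summed TPM was 8553 to 9008 in scramble and 3932 to 4190 in knockdown. JCHAIN and MZB1, which are also folding members here, are among those that were lower. JCHAIN alone, at means of 6443 TPM in scramble and 1789 TPM in knockdown, made up nearly all of the fall in that sum. Erythroid markers also differed: their summed level was 3.86 to 5.66 TPM in scramble and 699.4 to 702.9 TPM in knockdown, with 10 of 12 listed at 0 in every scramble library, among them GATA1 and 5 globin genes, and 10 of 11 tested higher. Epithelial markers summed to 20.7 to 23.5 TPM in scramble and 90.3 to 98.1 TPM in knockdown, with 5 of 7 higher, 1 lower and KRT19 at 0 in scramble. Myeloid markers summed to 0.91 to 1.27 TPM in scramble and 7.15 to 7.81 TPM in knockdown, with 2 of 3 tested higher and none lower. T and NK cell markers, of which none passed the filter, summed to 0.32 to 0.43 and 1.37 to 2.05 TPM, with CD3D at 0 in scramble and NKG7 at 0 in all 6 libraries. Fibroblast and endothelial markers summed to 8.42 to 9.19 and 6.15 to 6.90 TPM, with 3 of 4 tested lower and COL1A2, listed at 0 in scramble, higher at 4.61 ± 0.532 TPM in knockdown (SD, n = 3). The part of these other cell type genes in the results below was not tested. In such bulk libraries, fewer cells of a type and less RNA per cell cannot be told apart.

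The folding genes were mostly lower after CRIP1 knockdown, and the degradation genes were mixed, with somewhat more of them higher than lower. Among the 22 folding genes 18 fell, 3 rose and 1 did not pass the test, with a median log2 fold change of -0.37. Of the 15 degradation genes 8 rose, 5 fell and 2 did not pass, with a median of 0.21. Differences were called with edgeR's quasi-likelihood test at an adjusted p under 0.05, and this comparison called 77.6% of all genes tested, 39.4% as higher and 38.1% as lower, with a median of 0.01 over all genes. With so many calls, passing the test sets no gene apart, so the sizes matter more: the middle 50% of all genes lay between -0.39 and 0.43. A fall of at least 1.5-fold was called for 7 of 22 folding genes and 2 of 15 degradation genes, against 17.1% of all genes tested. A rise of that size was called for 3 folding genes and no degradation gene, against 18.2% of all genes. Past a fold of 2, 4 of the 37 genes fell (JCHAIN, MZB1, DERL3 and PDIA4) and 1 rose (DNAJB9), against 8.06% and 10% of all genes. Folds here and below are those of the fit, and some crossed these limits across 6 scalings of the data. On at least 1 scaling DERL3 (-0.95) and PDIA4 (-0.91) were under 2-fold, and VCP (-0.53), ERO1B (-0.43) and DNAJC10 (0.42) under 1.5-fold. PDIA6 (-0.70), DNAJB11 (-0.64), HERPUD1 (0.64) and DERL1 (0.63) passed 1.5-fold on at least 1. The number of degradation genes called lower was 2 without knockdown replicate 3 and 3 without scramble replicate 3, the lost calls being among those of EDEM3, OS9 and SELENOK. Their balance also moved with the processing. With a trend over GC content removed 8 rose and 6 fell, and on log2(TPM + 1) 9 rose and 2 fell.

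The fall held for the folding genes without the antibody partners MZB1 and JCHAIN, where 16 of 20 fell, 3 rose and the median was -0.35. The summed level of those 20 genes was 6319, 6257 and 6326 TPM in scramble replicates 1 to 3 and 5267, 5360.5 and 5362 TPM in knockdown, so the means were 6301 ± 37.8 and 5330 ± 54.6 TPM (SD, n = 3). The 15 degradation genes summed to 1888, 1865 and 1889 TPM in scramble and to 2114, 2108 and 2068 TPM in knockdown (1881 ± 13.4 and 2097 ± 25.2 TPM; SD, n = 3). Neither pair of groups overlapped, and the TPM sums moved in opposite directions. The degradation sum rose 1.11-fold, and HERPUD1, at means of 327 TPM in scramble and 512 TPM in knockdown, made up most of that gain. TPM also places knockdown higher than the fit does: the median of all genes was 0.12 on log2(TPM + 1) and 0.01 in the fit. Whether the degradation sum rises on the scale of the fit was not tested. Within a library, the folding sum was 3.35 times the degradation sum in each scramble library and 2.49, 2.54 and 2.59 times in the knockdown libraries. With MZB1 and JCHAIN counted in, the ratio was 7.04, 6.87 and 6.96 in scramble and 3.49, 3.40 and 3.53 in knockdown. All 37 genes together took 1.497% of TPM in scramble and 0.938% in knockdown, most of the gap being JCHAIN.

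**Figure D1:**
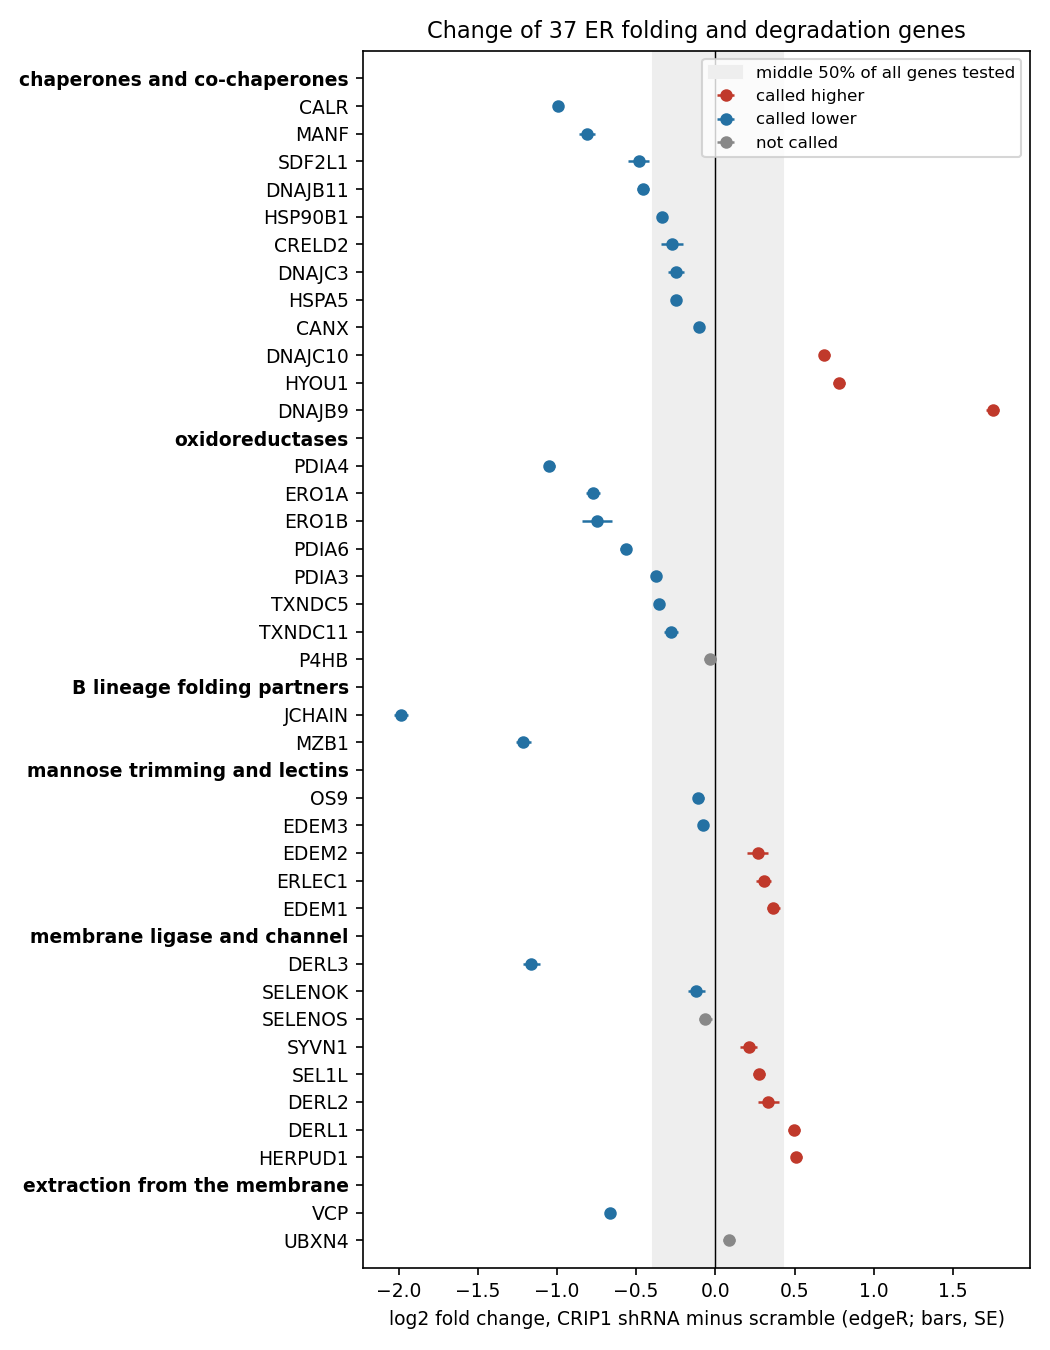
Log2 fold change (knockdown minus scramble, edgeR) of each of the 37 genes by role, with SE as bars, over a grey band marking the middle 50% of all genes tested. JCHAIN lies lowest at -1.99 and DNAJB9 highest at 1.75, 7 of the 8 oxidoreductases were called lower, and most degradation genes lie between -0.12 and 0.51.

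The groups of library values did not overlap in TPM for 30 of the 37 genes (19 folding and 11 degradation), which was so for 78.5% of all genes tested. TPM ratios of the groups lay above the fold changes of the fit: the median of all genes was 0.12 on log2(TPM + 1) and 0.01 in the fit. Across 6 scalings of the data, 28 of the 37 genes were called in a single direction in all: 3 folding genes as higher and 15 as lower, and 8 degradation genes as higher and 2 as lower. The other 9 were CANX, DNAJC3, CRELD2, P4HB, EDEM3, OS9, SELENOS, SELENOK and UBXN4, all with log2 fold changes between -0.47 and 0.22 on every scaling. The share of all genes that kept a call in 1 direction on every scaling was not counted, and the fit alone called 77.6% of them. On log2(TPM + 1), 15 folding genes fell and 4 rose (21.1% of calls higher, against 14.3%), and 2 degradation genes fell and 9 rose (81.8% higher, against 61.5%). All genes shifted the same way: 5531 rose and 3482 fell of 11639 tested on that scale, against 4974 and 4809 of 12612 in the fit.

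Among the 12 chaperones and co-chaperones 9 fell and 3 rose, with a median of -0.26. HSPA5, the central ER member of the HSP70 family, was at 310.2, 303 and 299.9 TPM in scramble and at 281, 279 and 286 TPM in knockdown. Its groups did not overlap but lay close together, and the fall was small (log2 fold change -0.25, SE 0.03, adjusted p = 5.90e-07). HSP90B1 (GRP94), the ER member of the HSP90 family, went from 578, 572 and 553 to 494, 491 and 495 TPM (-0.34, SE 0.03). The ratio of HSPA5 to HSP90B1 was 0.530 to 0.543 in scramble and 0.568 to 0.577 in knockdown, so it was slightly higher in every knockdown library. HSPA5 lies on the minus strand of chromosome 9 (125234853 to 125241330, GENCODE 29, GRCh38) and HSP90B1 on the plus strand of chromosome 12 (103930107 to 103953645).

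CALR, calreticulin, the soluble lectin chaperone of the ER, moved much more than HSPA5. It stood at 1273, 1286 and 1289 TPM in scramble and at 700.5, 714 and 708 TPM in knockdown, 1.99-fold lower (1283 ± 8.70 to 707 ± 6.81 TPM; SD, n = 3). The 3 knockdown values lie within a narrow band far below the scramble values (-0.99, SE 0.03, adjusted p = 1.58e-16), and 8.10% of all genes tested had a lower log2 fold change. CANX, calnexin, the membrane-bound lectin of the same cycle, was at 602, 606 and 622 TPM in scramble and at 639, 614 and 627 TPM in knockdown. Its values overlapped, and although the fit called a small fall (-0.10, SE 0.03), the difference was 0.04 on log2(TPM + 1). The ratio of CALR to CANX was 2.12, 2.12 and 2.07 in scramble and 1.10, 1.16 and 1.13 in knockdown. CALR spans 12938578 to 12944489 on the plus strand of chromosome 19, and CANX 179678628 to 179730925 on the plus strand of chromosome 5.

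The promoters of these 4 chaperones hold matches to the ER stress response element (ERSE), which is known as a binding site of ATF6 with the factor NF-Y and of XBP1. ERSE was searched on both strands, as CCAAT, any 9 bases and CCACG, in RefSeq promoters of GRCh38.p14, each 250 bases before to 50 after a transcript start. The stretches are printed 5′ to 3′ on the gene's strand with the matched letters in capitals, because these genes share the element and differed in the size of their change. The match of HSPA5 is 66 to 48 bases before the start, that of CALR 225 to 207 bases before it and in the reverse orientation, and HSP90B1 has 1 in each orientation.
HSPA5, chr9:125241381-125241419, minus strand: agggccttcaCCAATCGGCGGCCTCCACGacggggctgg
HSP90B1, chr12:103930206-103930349, plus strand: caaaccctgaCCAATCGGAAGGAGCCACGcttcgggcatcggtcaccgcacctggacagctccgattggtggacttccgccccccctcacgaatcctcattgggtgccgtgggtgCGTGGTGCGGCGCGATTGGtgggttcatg
CALR, chr19:12938374-12938412, plus strand: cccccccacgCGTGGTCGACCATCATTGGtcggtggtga
CANX, chr5:179698768-179698806, plus strand: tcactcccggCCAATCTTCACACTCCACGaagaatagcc

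In GENCODE 29 the stretches of HSPA5 and CALR lie outside any gene, that of CANX lies in an intron of a longer CANX transcript, and 22 bases of the HSP90B1 stretch overlap exons. The log2 fold changes of the genes carrying these matches ran from -0.99 (CALR) to -0.10 (CANX).

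DNAJB9 (ERdj4), a J-domain co-chaperone of HSPA5 that is known to bind misfolded chains and to restrain ERN1, rose more than any other of the 37 genes. It was at 46.2, 46.6 and 47.0 TPM in scramble and at 179, 163 and 176 TPM in knockdown (46.6 ± 0.406 to 172 ± 8.65 TPM; SD, n = 3). The knockdown values were all more than 3 times the scramble values, and the fit gave a 3.36-fold rise (1.75, SE 0.04, adjusted p = 3.49e-18). DNAJB9 lies on the plus strand of chromosome 7 (108569568 to 108574850). HYOU1 (GRP170), a nucleotide exchange factor of HSPA5, was at 116, 114 and 125 TPM in scramble and at 218, 226 and 224 TPM in knockdown, a 1.72-fold rise (0.78, SE 0.04, adjusted p = 1.01e-13). DNAJC10 (ERdj5), a J protein with thioredoxin domains that reduces disulfides of chains bound for degradation, went from 13.2, 13.3 and 13.8 to 23.9, 23.1 and 24.2 TPM (0.69, SE 0.04, adjusted p = 3.98e-13). All values of these 3 genes were higher in knockdown than in scramble. HYOU1 spans 119044189 to 119057202 on the minus strand of chromosome 11 and DNAJC10 182716041 to 182794464 on the plus strand of chromosome 2.

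A further pair of elements was searched for on both strands, ERSE-II as ATTGG, any 1 base and CCACG, and the unfolded protein response element (UPRE) as TGACGTGG. HYOU1 and DNAJC10 are shown because they rose while their promoters hold such matches. Other genes with such matches fell: SDF2L1 (-0.48) holds ERSE-II 188 to 178 bases before the start, and TXNDC11 (-0.28) holds UPRE just after its start. HYOU1 has 2 matches to ERSE-II, 185 to 175 and 79 to 69 bases before the start, and a UPRE match overlaps the farther of them. DNAJC10 has a UPRE match 125 to 118 bases before the start.
HYOU1, chr11:119057264-119057403, minus strand: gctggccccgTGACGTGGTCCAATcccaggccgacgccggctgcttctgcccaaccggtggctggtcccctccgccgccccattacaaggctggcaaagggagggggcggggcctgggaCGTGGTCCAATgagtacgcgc
DNAJC10, chr2:182716122-182716149, plus strand: gcgcacaccgCCACGTCAacctaaacct

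In GENCODE 29 the HYOU1 stretch lies outside any gene and the DNAJC10 stretch in an exon of a longer DNAJC10 transcript. The DNAJB9 promoter held none of the 3 elements in this window.

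MANF, a secreted ER protein that binds HSPA5 and stabilises its client complexes, was at 149, 146 and 153 TPM in scramble and at 89.7, 95.5 and 95.9 TPM in knockdown, 1.75-fold lower (-0.81, SE 0.05, adjusted p = 1.69e-11). Its groups were well apart, and only CALR fell further among the chaperones. MANF lies on the plus strand of chromosome 3 (51385047 to 51389397). SDF2L1 and DNAJB11 (ERdj3), which work together with HSPA5, fell to a like extent: SDF2L1 from 145, 139 and 134 to 101, 121 and 107 TPM (-0.48, SE 0.07) and DNAJB11 from 271, 273 and 286 to 218, 226 and 222 TPM (-0.45, SE 0.04). DNAJC3 (p58IPK), another J protein of HSPA5, differed less, from 17.3 to 18.4 TPM in scramble to 15.8 to 17.3 TPM in knockdown (-0.25, SE 0.05). CRELD2, a small ER stress-responsive protein, had overlapping values of 41.4 to 50.9 and 39.4 to 43.1 TPM and a called fall of 0.27 on the log2 scale (SE 0.07). The J proteins as a family changed make-up: their summed level was 355 TPM in scramble and 435 TPM in knockdown, DNAJB9's share of it was 13.2% and then 39.7%, and DNAJB11's share was 78.1% and then 51.1%.

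**Figure D2:**
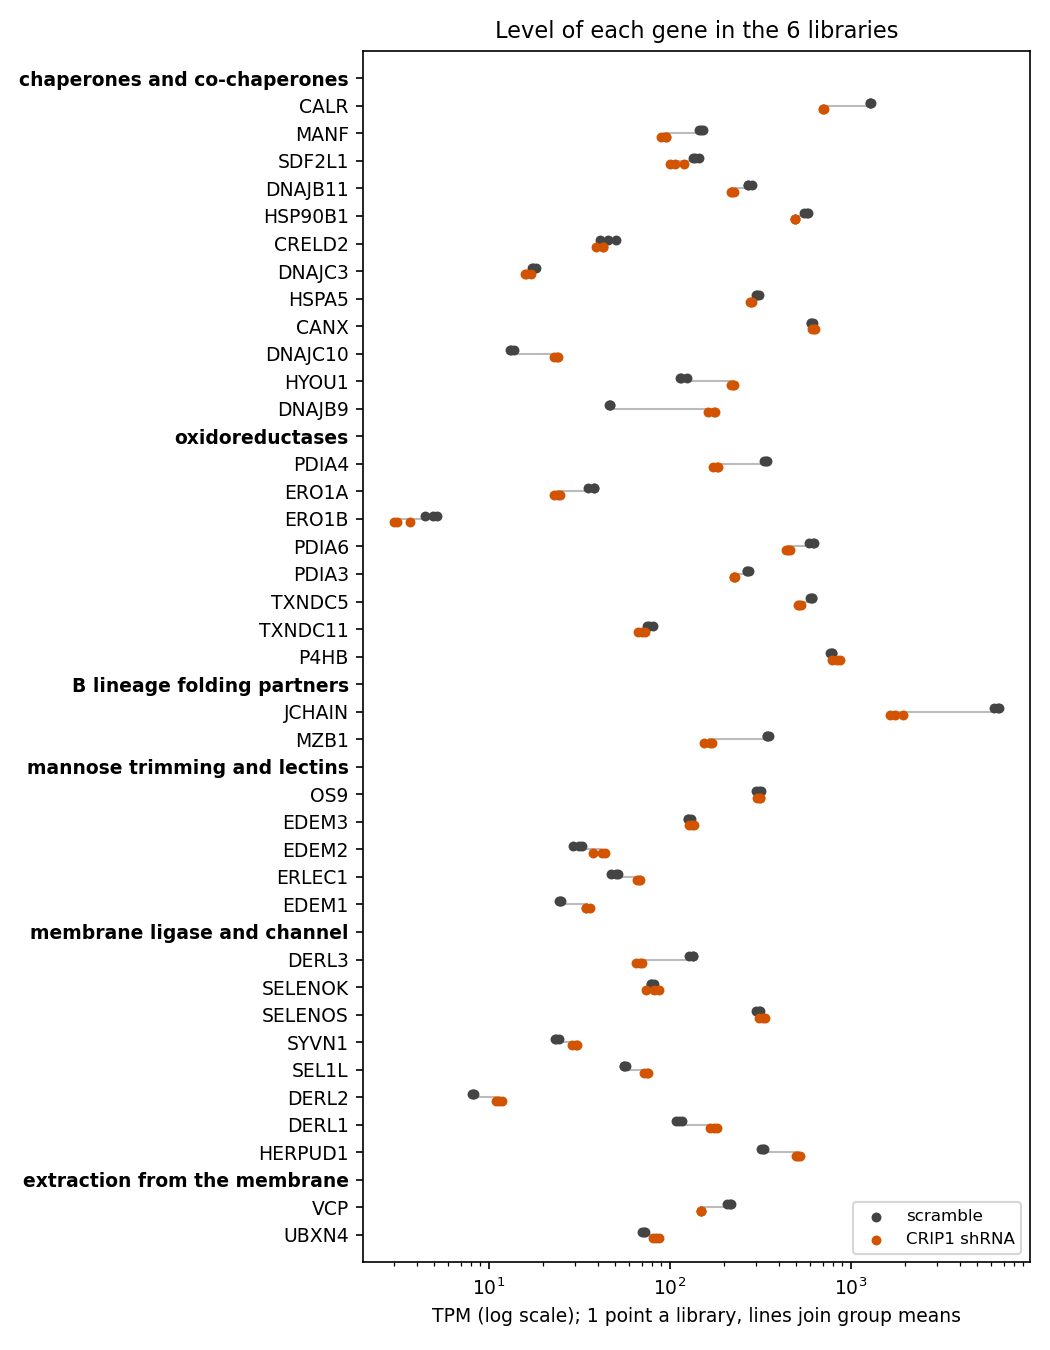
TPM of each gene in every library on a log axis, scramble in grey and CRIP1 shRNA in orange, with lines joining the group means. Levels run from about 3 TPM for ERO1B to over 6200 TPM for JCHAIN, and replicates lie close together compared with the gaps of JCHAIN, CALR, PDIA4, DERL3 and DNAJB9.

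Of the 8 oxidoreductases 7 fell and P4HB did not pass the test, with a median of -0.47. PDIA4 (ERp72), a PDI family member with 3 active thioredoxin domains that is found in chaperone complexes with HSPA5, fell furthest. It was at 341, 333 and 345 TPM in scramble and at 173, 185 and 182 TPM in knockdown, 2.07-fold lower (339.6 ± 6.01 to 180.3 ± 6.41 TPM; SD, n = 3; -1.05, SE 0.04, adjusted p = 5.94e-16). The groups were far apart compared with their spread, and the gene lies on the minus strand of chromosome 7 (149003062 to 149028641). PDIA6 (P5), a PDI family member known to bind ERN1, went from 626, 586 and 616 to 463, 442 and 453 TPM (-0.57, SE 0.03, adjusted p = 5.21e-12). At 1.48-fold lower it stood just outside the fold of 1.5 from which all values are given. The ratio of PDIA6 to PDIA4 was 1.76 to 1.84 in scramble and 2.38 to 2.67 in knockdown.

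ERO1A and ERO1B, the oxidases that recharge PDI proteins with disulfides, had similar log2 fold changes. ERO1A was at 35.4, 38.0 and 38.1 TPM in scramble and at 24.2, 22.9 and 24.8 TPM in knockdown (-0.77, SE 0.04, adjusted p = 2.48e-12). ERO1B, the form known from secretory tissue, was far lower, at 4.96, 5.21 and 4.44 TPM in scramble and 3.12, 2.99 and 3.70 TPM in knockdown (-0.75, SE 0.10, adjusted p = 5.70e-07). Both genes kept separate groups, and the ratio of ERO1A to ERO1B overlapped between the groups (7.15 to 8.59 in scramble, 6.70 to 7.75 in knockdown). ERO1A lies on the minus strand of chromosome 14 (52639916 to 52695900) and ERO1B on the minus strand of chromosome 1 (236215555 to 236281985).

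P4HB, the PDI of the family's name and a subunit of prolyl 4-hydroxylase, went against this pattern. It was at 792, 766 and 789 TPM in scramble and at 791, 876 and 846 TPM in knockdown, so the groups overlapped, and the difference did not pass the test (-0.04, 95% interval -0.12 to 0.04, adjusted p = 0.378). It was called higher on log2(TPM + 1) (0.10, limma's adjusted p = 0.0493) and lower in edgeR's fit without knockdown replicate 2 (-0.08, adjusted p = 0.0352). P4HB was the most abundant of the oxidoreductases in both groups, and its share of 6 PDI family members (with PDIA3, PDIA4, PDIA6, TXNDC5 and TXNDC11) was 29.1% in scramble and 36.6% in knockdown. PDIA3 (ERp57), the partner of calnexin and calreticulin, fell from 267, 273 and 267 to 228, 228 and 227 TPM (-0.38, SE 0.03). TXNDC5 (ERp46), abundant in plasma cells, fell from 612, 613 and 598 to 512, 521 and 531 TPM (-0.36, SE 0.03), and TXNDC11, which is known to work with the EDEM proteins, from 77.6 ± 3.15 to 70.04 ± 2.83 TPM (SD, n = 3; -0.28, SE 0.04). These 3 falls were close to that of HSP90B1.

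PDIA6 and ERO1B also held an ERSE match, and TXNDC5 a UPRE match. They are printed because the ERSE of PDIA6 sits 86 to 68 bases before the start, whereas that of ERO1B lies 243 to 225 bases before it. PDIA6 and TXNDC5 each have a further RefSeq promoter without a match.
PDIA6, chr2:10812843-10812881, minus strand: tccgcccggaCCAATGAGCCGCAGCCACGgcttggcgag
ERO1B, chr1:236282173-236282208, minus strand: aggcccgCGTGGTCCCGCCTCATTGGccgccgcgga
TXNDC5, chr6:7910152-7910179, minus strand: cactggcggcTGACGTGGcgctcggcgg

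In GENCODE 29 the PDIA6 stretch lies within the PDIA6 gene (10783391 to 10837977) and overlaps an exon by 2 bases, the ERO1B stretch lies outside any gene, and the TXNDC5 stretch lies within the TXNDC5 gene (7881517 to 7910814) in no exon.

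The antibody partners moved most among the folding genes that fell. JCHAIN, the chain that joins antibodies into dimers and pentamers, was at 6641, 6200.5 and 6487 TPM in scramble and at 1956, 1642 and 1769 TPM in knockdown, 3.96-fold lower (-1.99, SE 0.04, adjusted p = 1.16e-18). The lowest scramble value was more than 3 times the highest knockdown value, and JCHAIN went from rank 6 to rank 70 among all genes by mean TPM. MZB1 (pERp1), a plasma cell protein that assists HSP90B1 and the assembly of antibody, was at 344, 352 and 344 TPM in scramble and at 155, 167 and 171 TPM in knockdown, 2.32-fold lower (-1.21, SE 0.05, adjusted p = 3.35e-15). JCHAIN lies on the minus strand of chromosome 4 (70655541 to 70681817) and MZB1 on the minus strand of chromosome 5 (139387480 to 139390081). Both are also among the plasma cell markers, of which POU2AF1, a B lineage coactivator, was at 191 ± 7.70 TPM in scramble and 142 ± 2.14 TPM in knockdown (SD, n = 3). Other markers of the same list were higher in knockdown, among them TNFRSF17 (BCMA), at 761 ± 9.32 and 1032 ± 38.5 TPM (SD, n = 3).

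In the degradation arm, the 5 genes that trim mannose or read the trimmed sugar divided by abundance. EDEM1, EDEM2 and ERLEC1 rose, while EDEM3 and OS9, the most abundant of each kind, were called slightly lower in the fit and were not lower on log2(TPM + 1). EDEM1, a mannosidase-like protein, was at 24.5, 24.7 and 25.2 TPM in scramble and at 36.3, 34.5 and 34.6 TPM in knockdown (0.37, SE 0.04, adjusted p = 7.11e-08). EDEM2, which starts the trimming, went from 32.9, 29.4 and 31.7 to 37.7, 44.2 and 42.2 TPM (0.27, SE 0.07). ERLEC1 (XTP3-B), a lectin of the ligase complex, went from 50.4, 47.5 and 51.7 to 68.3, 68.0 and 66.3 TPM (0.30, SE 0.05). Each of these 3 had separate groups. EDEM3 was at 126 to 131 TPM in scramble and 129 to 136 TPM in knockdown (-0.08, SE 0.03; 0.05 on log2(TPM + 1)), and OS9, the other lectin, at 299 to 318 and 302 to 316 TPM (-0.11, SE 0.04; 0.01 on log2(TPM + 1)), with overlapping groups in both cases. The ratio of OS9 to ERLEC1 was 6.20 ± 0.170 in scramble and 4.60 ± 0.0403 in knockdown (SD, n = 3).

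At the membrane, SEL1L, the adaptor that holds the ligase complex together, was at 55.8, 56.4 and 57.8 TPM in scramble and at 75.6, 72.0 and 74.8 TPM in knockdown (0.28, SE 0.04, adjusted p = 7.27e-07). SYVN1 (HRD1), the ubiquitin ligase and channel, was at 24.4, 23.5 and 23.2 TPM in scramble and at 28.97, 30.95 and 30.55 TPM in knockdown (0.21, SE 0.05, adjusted p = 0.00121). Both rose modestly, with no overlap of groups, and their ratio overlapped between the groups (2.29 to 2.49 in scramble, 2.33 to 2.61 in knockdown). HERPUD1, a ubiquitin-like domain protein that organises the same complex, rose most of the 15 degradation genes, from 326, 334 and 321 to 512, 528 and 497 TPM, 1.43-fold (0.51, SE 0.04, adjusted p = 3.81e-11). SEL1L lies on the minus strand of chromosome 14 (81471549 to 81533861), SYVN1 on the minus strand of chromosome 11 (65121780 to 65134533) and HERPUD1 on the plus strand of chromosome 16 (56932048 to 56944863).

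The Derlins, rhomboid-like membrane proteins of the retrotranslocation channel, moved in opposite directions. DERL1 was at 112, 109 and 118 TPM in scramble and at 176, 167 and 183 TPM in knockdown, 1.41-fold higher (0.50, SE 0.04, adjusted p = 2.45e-10). DERL2, the least abundant, rose from 8.23, 8.32 and 8.15 to 11.8, 11.4 and 11.1 TPM (0.34, SE 0.07, adjusted p = 0.000126). DERL3, the member known from secretory cells, fell from 135, 129 and 135 to 65.1, 70.5 and 69.0 TPM, 2.24-fold lower (-1.16, SE 0.05, adjusted p = 5.94e-14). No library overlapped with the other group in any of the 3. Their sum was 254 ± 7.34 TPM in scramble and 255 ± 7.06 TPM in knockdown (SD, n = 3), while DERL3's share of it was 52.3% and then 26.8%, and DERL1's 44.4% and then 68.7%. DERL3, on the minus strand of chromosome 22 (23834503 to 23839128), was the degradation gene that fell furthest, and 6.34% of all genes tested had a lower log2 fold change.

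**Figure D3:**
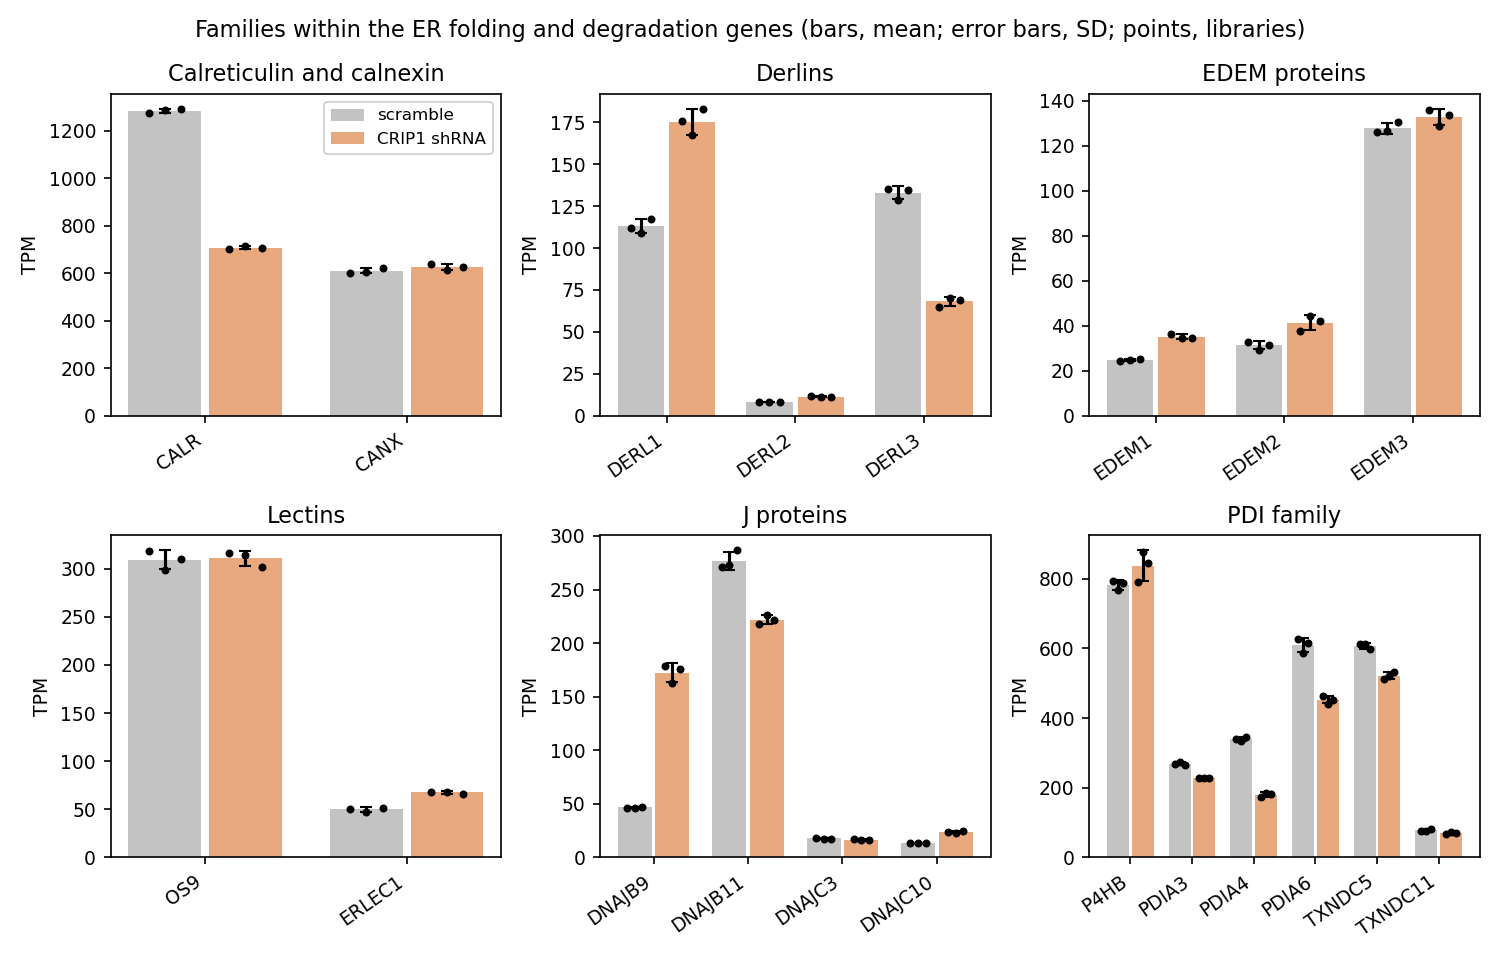
Mean TPM with SD (n = 3 libraries, points) of the members of 6 families, scramble in grey and CRIP1 shRNA in orange, each panel on its own axis from 0. CALR is near CANX only in knockdown, DERL1 and DERL3 change places, and DNAJB9 approaches DNAJB11 in knockdown.

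SELENOS and SELENOK, small selenoproteins of the ER membrane that bind the Derlins and VCP, had overlapping groups. SELENOS was at 302 to 316 TPM in scramble and 310.5 to 335 TPM in knockdown and did not pass the test (-0.06, 95% interval -0.15 to 0.02, adjusted p = 0.16; 0.07 on log2(TPM + 1)). SELENOK was at 79.2 to 82.2 and 74.5 to 87.5 TPM, with a called fall that did not keep its sign (-0.12, SE 0.05, adjusted p = 0.0451; 0.01 on log2(TPM + 1)).

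VCP (p97), the ATPase that pulls ubiquitin-tagged chains out of the membrane, was at 219.6, 209 and 215 TPM in scramble and at 149, 148 and 148 TPM in knockdown, 1.59-fold lower (215 ± 5.57 to 149 ± 0.280 TPM; SD, n = 3; -0.67, SE 0.03, adjusted p = 3.12e-13). Its knockdown values were nearly identical and lay well below the scramble values. With DERL3 it was the only degradation gene to fall by 1.5-fold or more in the fit, though VCP fell by less than that on at least 1 other scaling (-0.53). UBXN4 (erasin), a VCP adaptor of the ER membrane, was at 73.3, 72.5 and 70.3 TPM in scramble and 87.0, 81.0 and 83.7 TPM in knockdown. Although these values do not overlap, the difference did not pass the test in the fit (0.08, SE 0.04, adjusted p = 0.0546). UBXN4 was called higher with upper-quartile scaling (0.13), with at least 50 counts in 3 libraries (0.10), on log2(FPKM + 1) (0.17), on log2(TPM + 1) and log2(TPM + 0.1) (0.22 each), without knockdown replicate 2 (0.10) and without scramble replicate 1 (0.10), and lower with a trend over GC content removed (-0.09). VCP lies on the minus strand of chromosome 9 (35056064 to 35073249).

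Among the degradation genes, HERPUD1 and VCP held a match to an element. Their stretches are shown because these genes moved in opposite directions, HERPUD1 with ERSE-II 117 to 107 bases before the start and VCP with UPRE 189 to 182 bases before it.
HERPUD1, chr16:56932015-56932045, plus strand: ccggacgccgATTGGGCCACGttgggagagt
VCP, chr9:35072797-35072824, minus strand: tgcggccaatTGACGTGGcgttactagg

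In GENCODE 29 the HERPUD1 stretch lies outside any gene and the VCP stretch in an exon of a longer VCP transcript.

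Over the whole set, 34 of the 37 genes were found in the RefSeq promoter table (DERL1, DERL3 and PDIA3 were not), 4 of them with more than 1 promoter. ERSE was matched in 7 of the 34 (20.6%), ERSE-II in 3 (8.82%) and UPRE in 5 (14.7%), and any of the elements in 14 (41.2%). Of the 10244 tested genes with a promoter in the table, 0.156%, 0.137% and 1.18% held them and 1.46% held any, and of all 27305 genes in it 0.0916%, 0.0696%, 0.927% and 1.08%. The elements are known from targets of the unfolded protein response, and no test compared these shares. By arm, 12 of 21 folding genes and 2 of 13 degradation genes had a match. All 7 genes with ERSE (CALR, CANX, CRELD2, ERO1B, HSP90B1, HSPA5 and PDIA6) were called lower, with CANX changing sign on log2(TPM + 1). All 7 are folding genes, of which 18 of 22 were lower. Within the folding genes, 10 of 12 with a match to any element and 7 of 9 without one were called lower. Of the degradation genes with a match HERPUD1 rose and VCP fell, and of the 11 without one 6 rose, 3 fell and 2 did not pass. Of the 5 genes that changed at least 2-fold in the fit, JCHAIN, MZB1, PDIA4 and DNAJB9 held no match in this window, and DERL3 is not in the table. These are counts of letters in a short window, not of bound sites.

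**Figure D4:**
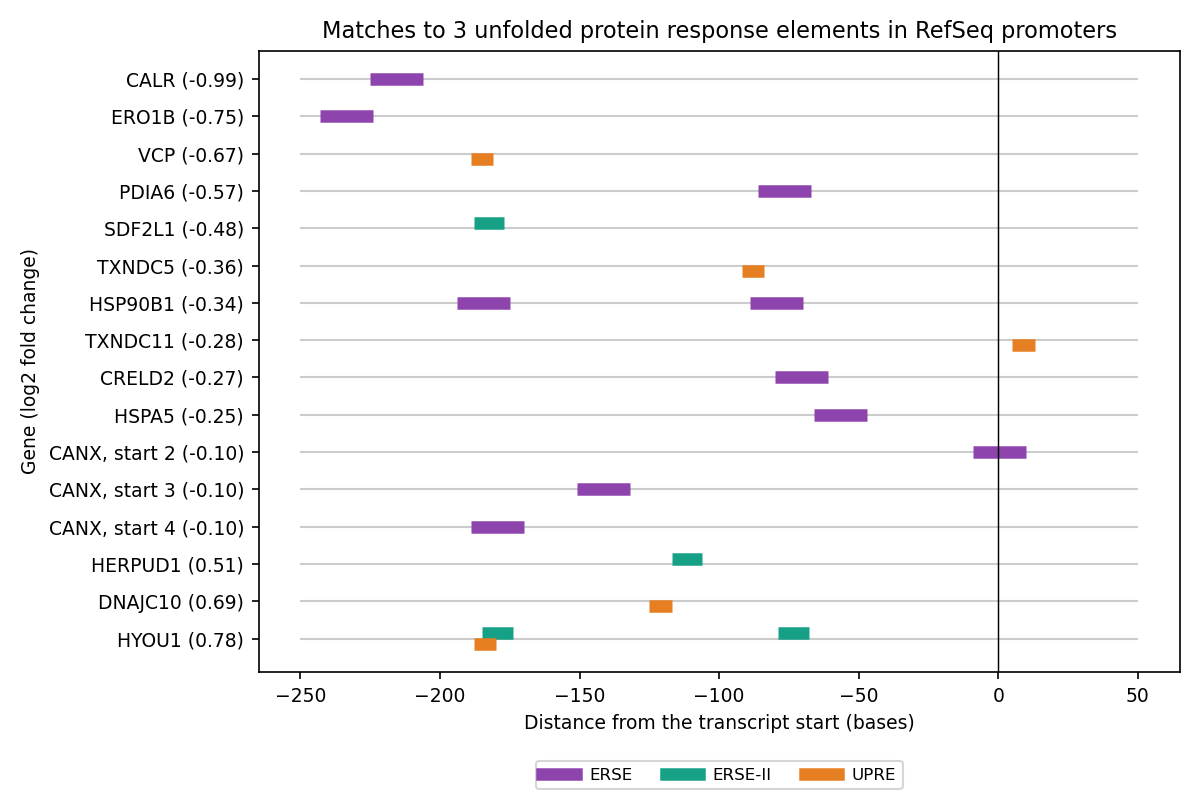
Positions of matches to ERSE, ERSE-II and UPRE in the 300-base promoters of the 14 genes with a match, by distance from the transcript start in bases, ordered by log2 fold change (in brackets). ERSE matches belong to genes with changes of -0.99 to -0.10, HYOU1 holds 3 matches, and the CANX match is a single site read from 3 transcript starts.

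A list of 20 genes around the regulators of the unfolded protein response was mostly higher: 15 rose, 3 fell and 2 did not pass, with a median of 0.55. Of all genes tested, 39.4% were called higher and 38.1% lower. The list is broader than the sensors and their factors: it also holds ASNS and CHAC1, and NFYA, NFYB and NFYC of the general factor NF-Y. ERN1, the sensor and nuclease that splices XBP1, was at 26.9, 26.1 and 27.6 TPM in scramble and at 138, 132 and 135 TPM in knockdown (2.15, SE 0.04, adjusted p = 1.36e-20). DDIT3 (CHOP), a transcription factor downstream of ATF4, was at 197, 196 and 201 TPM and then at 725, 771 and 729.7 TPM (1.72, SE 0.04). ATF4 itself rose from 933, 914 and 933 to 1232, 1325 and 1196 TPM (0.30, SE 0.04). XBP1, by contrast, fell from 768, 767 and 785 to 565, 565 and 549 TPM (-0.60, SE 0.03, adjusted p = 7.22e-13), and a gene-level value does not tell its spliced form from the unspliced one. ATF6 rose by 0.39 on the log2 scale (SE 0.04), from 68.0, 60.9 and 65.0 to 110.0, 100.1 and 112 TPM, and the TPM means differed more, by 0.73 on the log2 scale. EIF2AK3 was at 17.4 to 18.2 TPM in scramble and 19.8 to 22.8 TPM in knockdown and did not pass the test (0.12, SE 0.06, adjusted p = 0.0696).

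Further ER folding and ERAD genes, from lists of the same pathways, had medians near that of all genes, and receptors that deliver ER to autophagy had a higher one. Of 38 further ER folding genes 36 were tested, of which 16 rose, 10 fell and 10 did not pass, with a median of 0.05. CLGN, calmegin, a calnexin relative best known from testis, rose from 45.2 ± 1.44 to 241 ± 8.71 TPM (SD, n = 3; 2.27, SE 0.04) and PDIA5 fell from 51.3 ± 1.79 to 24.3 ± 0.557 TPM (SD, n = 3; -1.22, SE 0.06). Of 42 further ERAD genes 17 rose, 13 fell and 12 did not pass, with a median of 0.06, or -0.03 with the GC trend removed. ERLIN2, a membrane scaffold that recruits ERAD substrates, rose from 13.6 ± 0.723 to 31.6 ± 1.14 TPM (SD, n = 3; 1.08, SE 0.05), and UBE2J1, the ubiquitin-conjugating enzyme of SYVN1, fell from 148 ± 6.46 to 86.5 ± 2.74 TPM (SD, n = 3; -0.92, SE 0.04). Of 9 receptors that deliver ER to autophagy 6 rose, 2 fell and 1 did not pass, with a median of 0.64, from RETREG3 (-0.37, SE 0.04) to CCPG1 (1.26, SE 0.03). These lists were described by counts and medians, and no test compared them with the folding or degradation genes. Over all genes tested, 39.4% were called higher and 38.1% lower, with a median of 0.01.

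**Figure D5:**
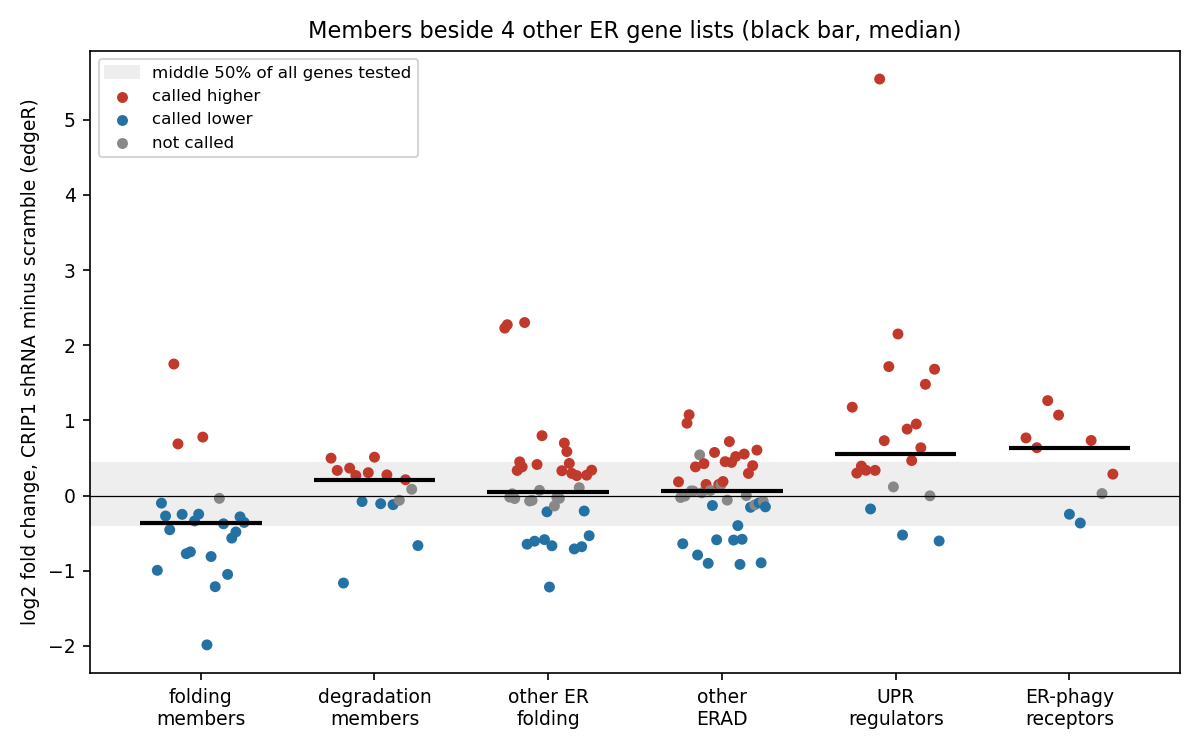
Log2 fold change of each tested gene of the 22 folding and 15 degradation genes and of 4 other ER lists (1 point a gene, black bars for medians) over the middle 50% of all genes tested. Medians are -0.37 for folding, 0.21 for degradation, 0.05 and 0.06 for the other folding and ERAD genes, 0.55 for the list labelled UPR regulators and 0.64 for ER-phagy receptors. The highest point, the regulator CREB3L1, had almost no counts in scramble, so its fitted value depends on the prior count.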

How the data were processed

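RNA sequencing of KMS11 cells gave 3 libraries with an shRNA against CRIP1 and 3 with a scrambled one, prepared from total RNA with a SMARTer mRNA kit, per the labels' protocols. The table as deposited by the authors gives estimated counts, which need not be whole, FPKM (scaled to gene length and library total) and TPM (scaled further to a common sum) for each gene and library. Per the submitters' processing notes the tools were HISAT2 2.1.0, Bowtie2 2.2.5 and RSEM 1.2.8 with build GRCh38.p13; the annotation and strand setting are not given in the sources used here, so overlapping antisense genes cannot be told apart.

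Estimated counts were rounded and tested with edgeR 4.0.16 (quasi-likelihood, TMM, filterByExpr with a minimum count of 10, group as the term) in R 4.3.3, with Benjamini-Hochberg adjustment over 12612 genes. SE is the log2 fold change over the square root of F. In simulated counts with 200 of 12612 genes changed, the fit recovered 43 of 67 genes at 1.25-fold, 63 of 67 at 1.5-fold and 60 of 66 at 2-fold. It made 7 false calls. That simulation changed far fewer genes than were called in the real comparison, so it does not show how the fit behaves there. The members and lists, and which genes are named, were chosen with earlier results of these data known: all values are given for members called at 1.5-fold or more and for HSPA5, SEL1L, SYVN1 and VCP, and for each other list the called gene with the largest fold in each direction at 10 CPM or more. DNAJB11, SDF2L1, PDIA6 and other members shown in every library were added for their role. Alternatives were a replicate block, DESeq2 1.42.0 (test and size factors), upper-quartile scaling, other filters, limma 3.58.1 on log2(FPKM + 1), log2(TPM + 1) and log2(TPM + 0.1), a test against 1.2-fold, removal of a GC trend (loess span 0.5; GC known for 97.7% of genes) and each library left out. Gene positions come from GENCODE 29 and promoters from RefSeq (GRCh38.p14). Protein sequences were not used here.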

Additional observations from a re-analysis of the deposited data

How the results depend on the processing

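Calls of 28 of the 37 genes kept their direction under all 6 scalings, and the share of all genes that did so was not counted. The median of the folding genes (-0.37) was -0.32 with upper-quartile scaling, -0.28 on log2(FPKM + 1), -0.23 on log2(TPM + 1) and log2(TPM + 0.1), -0.49 with the GC trend removed and -0.45 with DNAJB9, DNAJC10 and TXNDC11 counted with degradation, which leaves 1 folding gene higher. The median of the degradation genes (0.21) was 0.25, 0.28, 0.33 and 0.34 on the first 4 of these and 0.10 with the GC trend removed. The number of degradation genes called lower (5) was 2 with upper-quartile scaling, on FPKM, on both TPM scales and with the test against 1.2-fold, 3 with at least 50 counts in 3 libraries, 4 with the DESeq2 test, 6 with the GC trend removed, and 2 to 5 with each library left out: it was 2 without knockdown replicate 3 and 3 without scramble replicate 3. The test against 1.2-fold called 6 of the 37 genes higher and 15 lower, and 3 of the 15 degradation genes higher. Of all 12612 genes tested it called 3420 higher and 3260 lower. Signs reversed for P4HB (0.0056 with upper-quartile scaling, 0.051 on FPKM, 0.097 and 0.098 on the TPM scales, and -0.081 to 0.0078 with each library left out, the highest without knockdown replicate 1), EDEM3 (0.0074 on FPKM, 0.054 on both TPM scales), SELENOS (0.020 on FPKM, 0.066 and 0.067 on TPM), CANX (0.039 on TPM), OS9 (0.0085 and 0.0086 on TPM), SELENOK (0.014 on TPM) and UBXN4 (-0.087 with the GC trend removed, adjusted p = 0.0277). The median of all genes also moved with the scaling: it was 0.01 in the fit, 0.05 with upper-quartile scaling and 0.07 on log2(FPKM + 1). On log2(TPM + 1) it was 0.12, and with the GC trend removed -0.08. The cause of the reversals was not tested. SELENOK's call was lost with DESeq2 (adjusted p = 0.0971). With each library left out, calls changed for P4HB, EDEM3, SELENOS, SELENOK, UBXN4 and OS9 alone. Same-numbered libraries did not deviate together (r = 0.0455, -0.00877 and -0.0133), and the fit with the replicate number as a block changed 0 of the 37 calls. The thinnest values were those of ERO1B, with at least 146 estimated counts in each library, and DERL2, with at least 311.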

Other observations

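For 9370 genes with at least 100 counts and 1 TPM in every library, the counts and TPM together give the gene length that the authors' quantification used relative to other genes. That relative length moved by more than 5% between the groups in 7.62% of these genes and by more than 10% in 3.17%, and in 0 of the 37 members by more than 5%. DERL3 came nearest to that limit, with a ratio of 0.951 (knockdown over scramble). ATF6 passed it: its ratio was 0.865, and its change was 0.73 on the log2 scale of TPM means and 0.39 in the count fit.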
